A study of Mus musculus with 15 samples.

Results

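The libraries described here are the 4 of 15 in the series that came from tumour cells with high integrin alpha 6 (a6, encoded by Itga6) of animals labelled as lacking Sirt6. Of these, 2 held CD34-positive and 2 CD34-negative cells, and they were chosen by their labels alone. The cells came from skin tumours of C57BL/6 mice that had received DMBA, which mutates keratinocytes, and TPA, a tumour-promoting phorbol ester, for over 24 weeks. All 4 libraries share the genotype K14-cre; SIRT6 flox/flox, in which Cre is driven by the promoter of keratin 14, a keratin of basal keratinocytes, so that cells outside that lineage would keep the gene. They are called KO libraries below, as labelled. Comparison groups were the 3 CD34-positive and 3 CD34-negative a6-high wild-type (WT) libraries and the 2 CD34-negative a6-low KO libraries, all from tumours induced in the same way.

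CD34 is a surface sialomucin that marks bulge stem cells of mouse hair follicles and, in tumours induced by DMBA and TPA, a fraction of basal cells studied for its ability to propagate the tumour. Integrin alpha 6 binds laminin in the basement membrane and marks the basal layer. SIRT6 is a histone deacetylase known for restraining glycolytic genes. Glutathione, a small thiol made from glutamate, cysteine and glycine, is used by transferases and peroxidases to neutralise reactive compounds, and many genes of that system are controlled by the transcription factor NRF2. The comparison asks how the CD34-positive cells of tumours labelled as lacking Sirt6 differ from the CD34-negative a6-high cells next to them.

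Between 19.78 and 24.28 M reads (M, 1e6) were counted in genes in the 4 libraries, with 18321 to 19194 genes detected. Levels are given as CPM (counts scaled to 1e6 per library), which compare a gene between libraries but not 1 gene with another, since they are not divided by gene length. The sort was seen in the RNA: Cd34 stood at 178 and 174 CPM in CD34-positive replicates 1 and 2 and at 10.9 and 18.4 CPM in CD34-negative replicates 1 and 2. Itga6 stood at 321 and 576 CPM in CD34-positive and at 379 and 360 CPM in CD34-negative libraries, and the groups overlapped. Sirt6 was at 6.68 and 5.07 CPM in CD34-positive and at 8.53 and 6.88 CPM in CD34-negative libraries. In the a6-low KO libraries it was at 7.23 and 7.34 CPM and in the 9 WT libraries at 4.45 to 10.5 CPM, so the level of its RNA did not separate the genotypes. The sources used here do not give the exons between the floxed sites, and reads outside them would not report the deletion. Basal markers were high in all 4 libraries, with Krt14 at 28300 and 41900 CPM in CD34-positive and 44000 and 43200 CPM in CD34-negative cells. Trp63, the transcription factor of the basal layer, was at 215 to 244 CPM. Krt15, a further bulge marker, was at 597 and 389 CPM in CD34-positive and 931 and 1020 CPM in CD34-negative libraries, the reverse of the order of Cd34.

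Markers of other cells were low but not even. Of 12 fibroblast markers, Dcn, Lum, Dpt and Fap were at 0 in all 4 libraries, and the list summed to 0.336 and 0.32 CPM in CD34-positive and 1.78 and 1.71 CPM in CD34-negative cells. Thy1, which is not particular to fibroblasts, made up most of the latter (0.042 and 0.274 CPM against 1.63 and 1.36 CPM), and none of the other 11 markers exceeded 0.263 CPM in any of the 4 libraries. The 18 endothelial markers, which matter because endothelium also carries CD34, summed to 23.6 and 27.5 CPM against 8.94 and 9.9 CPM. Of the 12 that could be tested, 9 (75%) were higher in CD34-positive libraries without overlap and 0 were lower. Among all tested genes 18.2% were higher and 21.1% lower without overlap. Most of the endothelial sum in CD34-positive libraries was Egfl7 (8.78 and 8.41 CPM) and Tie1 (4.53 and 6.95 CPM). Cdh5, which defines endothelium, was at 0.084 and 0 CPM against 0.0379 and 0 CPM. Plvap was at 3.57 and 3.06 CPM against 0.72 and 0.0876 CPM, and Emcn at 0.84 and 1.23 CPM against 0.189 and 0 CPM. Of the 12 tested endothelial markers, 11 had a positive and 1 a negative log2 fold change. The part of such cells in the comparison was not tested. The 16 macrophage and dendritic markers summed to 50.8 and 75.5 CPM in CD34-positive libraries and to 177 and 56.3 CPM in CD34-negative replicates 1 and 2. Of the 13 that could be tested, 9 had a positive log2 fold change (median 0.65). Without overlap 5 (38.5%) were higher and 1 (7.69%) lower, against 18.2% and 21.1% of all tested genes. The Y-linked gene Ddx3y was at 55.6 and 51.9 CPM in replicate 2 of the CD34-positive and CD34-negative group and at 0 in both libraries of replicate 1. Uty reached 0.0379 CPM in CD34-negative replicate 1, against 10.7 and 12.8 CPM in the replicate 2 libraries.

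Same-numbered libraries deviated together from their group means (Pearson r across genes 0.53, the same for both KO pairs, since with 2 libraries the deviations mirror each other). They were therefore compared as pairs, a pairing that rests on the data and not on the labels. In the paired fit 63 genes rose and 26 fell in CD34-positive cells, 0.607% of the 14652 genes tested (0.43% rose and 0.177% fell). Cd34 itself, on which the cells were sorted, is among the 63 (log2 fold change 3.73 ± 0.61). Changes were large: 47 of the 63 and 20 of the 26 exceeded 4-fold. Without pairing, edgeR called 0 genes: the smallest adjusted p was 0.205, with 1066 genes (7.28%) at an unadjusted p under 0.05. DESeq2 without pairing called 187 (1.28%), 106 higher and 81 lower, among them 58 of the 89. When any 1 of the 4 libraries was left out of the paired fit, or only the 6 KO libraries were used, 0 genes were called. The words rose and fell below refer to the paired fit at an adjusted p under 0.05, and the log2 fold changes (CD34-positive minus CD34-negative, with standard errors) come from it. Medians over gene lists come from the unpaired fit.

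**Figure D1:**
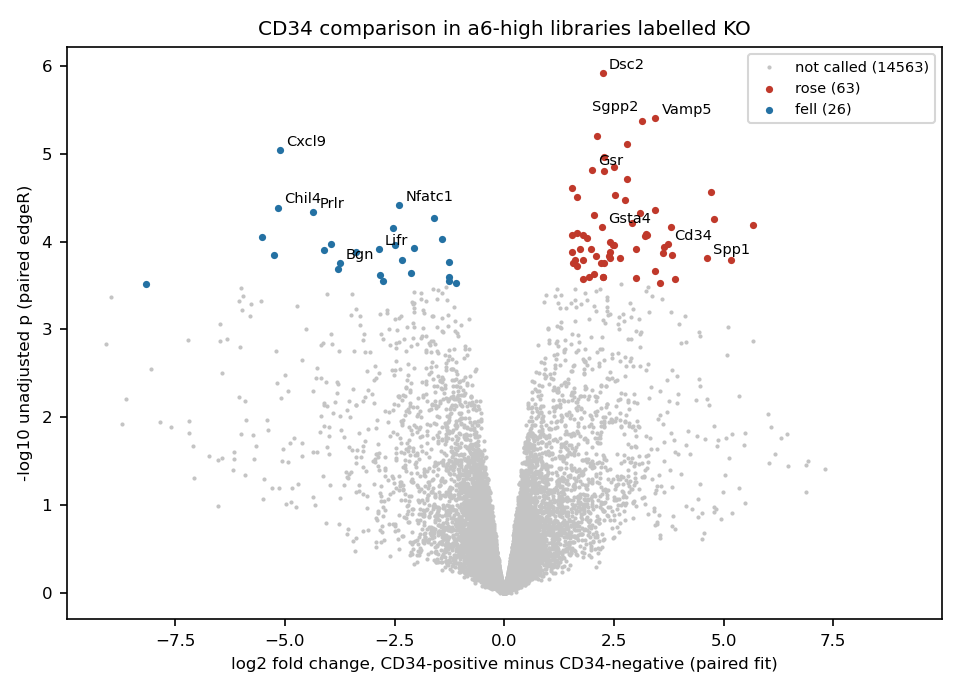
Each point is 1 of the 14652 tested genes, with its log2 fold change in the paired fit of the KO a6-high libraries on the x axis and its -log10 unadjusted p on the y axis. The 63 genes that rose and the 26 that fell are coloured, with Dsc2 and Cxcl9 uppermost on their sides.

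Of the gene lists examined, the one with the most genes that rose was the glutathione system. It was also the longest list, and the lists were written with earlier results of these data known. Of 38 tested genes of glutathione and antioxidant defence 5 rose and 0 fell, where 0.43% and 0.177% of all tested genes did. Of the 16 tested prostaglandin pathway genes 2 rose. The median log2 fold change of the glutathione list in the unpaired fit was 0.86 against -0.02 over all tested genes. In 23 of the 38 (60.5%) both CD34-positive libraries lay above both CD34-negative ones, against 18.2% of all tested genes, and in 4 (10.5%) both lay below, against 21.1%. Those shares of all tested genes, 18.2% higher and 21.1% lower without overlap, are the background for each such list count below. The 2 replicates gave like medians, 0.91 and 0.68 as differences of log2(CPM + 1).

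Gsto1, an omega-class glutathione transferase, stood at 11800 and 10500 CPM in CD34-positive libraries and at 3940 and 3700 CPM in CD34-negative ones, a log2 fold change of 1.55 ± 0.25 (adjusted p = 0.0357). Gsta4, a transferase that removes the lipid peroxidation product 4-hydroxynonenal, stood at 4000 and 3410 CPM against 942 and 679 CPM (2.22 ± 0.34, adjusted p = 0.0352). In both genes the libraries of a group lay close together and far from those of the other group. Slc7a11, the cystine transporter that feeds glutathione synthesis, was at 148 and 117 CPM against 13.6 and 9.55 CPM, an 11.7-fold rise (log2 3.54 ± 0.66, adjusted p = 0.0495). Gclc, the catalytic subunit of the enzyme that makes the first bond of glutathione, was at 330 and 213 CPM against 91.8 and 86.8 CPM (1.57 ± 0.27, adjusted p = 0.0366). Gsr, the reductase that regenerates glutathione with NADPH, was at 326 and 204 CPM against 106 and 38.1 CPM (2.0 ± 0.26, adjusted p = 0.0229). Within the list, import, synthesis, recycling and use of glutathione were thus each represented by a gene that rose. Outside it, genes of related function fell, picked with their values in view. Oplah, the 5-oxoprolinase of the glutathione cycle, was at 13.1 and 21.2 CPM against 47.3 and 53.2 CPM (-1.60 ± 0.24, adjusted p = 0.034). Slc1a1, a glutamate and cysteine transporter, was at 0.084 and 0 CPM against 3.03 and 0.876 CPM (-5.25 ± 0.89, adjusted p = 0.0365).

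Other members of the list lay higher in CD34-positive libraries without passing the test. Gclm, the modifier subunit paired with Gclc, was at 873 and 1000 CPM against 281 and 522 CPM (log2 1.29, adjusted p = 0.0674). Nqo1, a quinone reductase, was at 469 and 625 CPM against 189 and 263 CPM (1.28, adjusted p = 0.0728), and Cat, catalase, at 261 and 226 CPM against 88.8 and 94.4 CPM (1.40, adjusted p = 0.06). Gpx2, a glutathione peroxidase of epithelia, was at 907 and 623 CPM against 175 and 182 CPM (2.05, adjusted p = 0.0594). Gsta3 was at 66.1 and 39.5 CPM against 3.68 in both CD34-negative libraries (3.81, adjusted p = 0.0624), with the reservation that alpha-class transferases are close copies of each other and share reads. Not all antioxidant genes followed: Prdx1, a peroxiredoxin, was at 2290 and 2650 CPM against 2020 and 2400 CPM, and Gpx1 at 1380 and 2260 CPM against 2180 in both CD34-negative libraries. The 4 members that were lower without overlap were Gstm2, Mgst3, Sod2 and Txn1. Gstm2, a mu-class transferase, was at 36.2 and 28.5 CPM against 46.9 and 104 CPM (log2 -1.01, adjusted p = 0.687), and Mgst3, a microsomal transferase, at 56.7 and 121 CPM against 127 and 139 CPM (-0.68, adjusted p = 0.651). Sod2, the mitochondrial superoxide dismutase, was at 150 and 167 CPM against 197 and 169 CPM (-0.19, adjusted p = 0.942), and Txn1, thioredoxin, at 969 and 1060 CPM against 1690 and 1070 CPM (-0.39, adjusted p = 0.606).

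**Figure D2:**
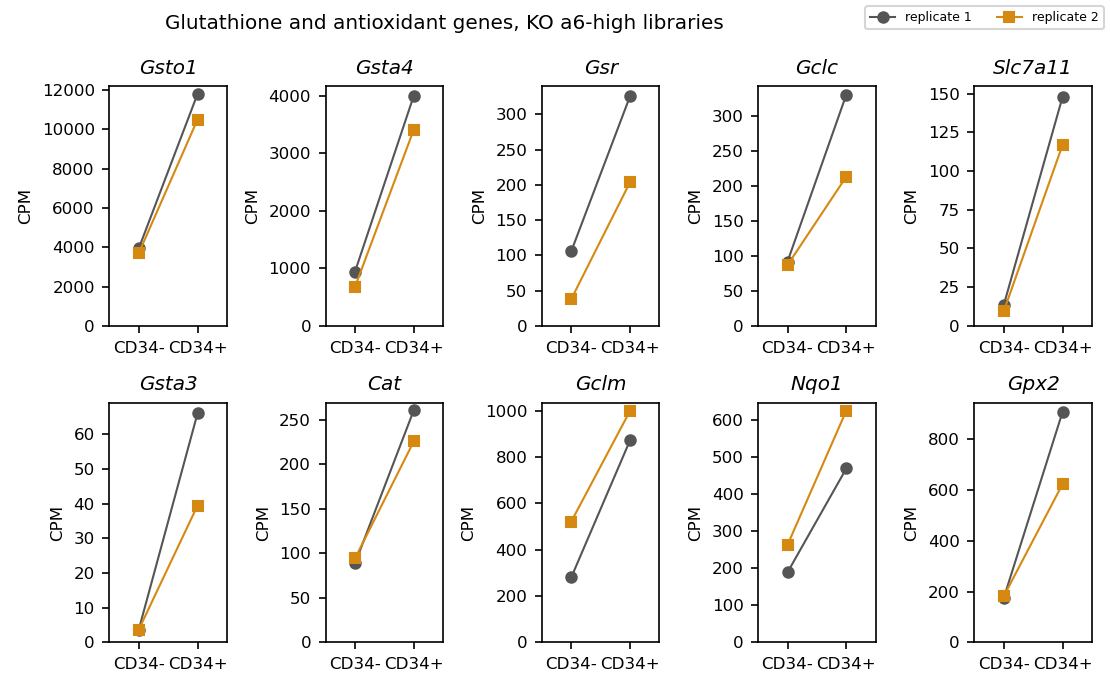
CPM of 10 glutathione and antioxidant genes in the 4 KO a6-high libraries, 1 panel per gene with its own linear axis from 0, lines joining the CD34-negative and CD34-positive library of the same replicate. All 10 have both CD34-positive points above both CD34-negative points, and the 5 in the upper row rose.

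NRF2 acts through the antioxidant response element, whose core TGACNNNGC was searched on both strands in RefSeq promoter windows (250 bases before to 50 after the start, build GRCm38.p6). The core was in the window of 10 of 33 list members with a window (30.3%), of 16.9% of tested genes and of 12.4% of all windows. Among the 17 members that were higher without overlap and had a window it was in 5 (29.4%), and among the 42 of the 63 risers with a window in 5 (11.9%). Only 2 of the 5 list members that rose had a window, and neither held the core there. Stretches around the core are shown for 3 members with both CD34-positive libraries above both CD34-negative ones, as examples of what was matched, with the core in capitals in the sense of the gene or as its reverse complement.
Gsta3 promoter, chr1:21240424-21240512, gene on the plus strand: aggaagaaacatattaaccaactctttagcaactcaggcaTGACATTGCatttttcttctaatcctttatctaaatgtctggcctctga
Gclm promoter, chr3:122245383-122245471, gene on the plus strand: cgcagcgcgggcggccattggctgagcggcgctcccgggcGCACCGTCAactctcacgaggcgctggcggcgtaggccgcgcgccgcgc
Srxn1 promoter, chr2:152105512-152105573, gene on the plus strand: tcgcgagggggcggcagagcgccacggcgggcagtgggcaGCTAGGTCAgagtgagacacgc
Gsta3 carries the core as written and the others its reverse complement. Srxn1, the enzyme that repairs oxidised peroxiredoxins, was at 208 and 176 CPM against 83.5 and 65.2 CPM (log2 1.37, adjusted p = 0.145). A match is a description of the letters only.

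NADPH for glutathione recycling comes in part from the pentose phosphate pathway. None of its 9 tested genes passed the test, 6 (66.7%) were higher and 1 (11.1%) lower without overlap, against 18.2% and 21.1% of all tested genes, and the median was 0.47. G6pdx, its first enzyme, was at 546 and 432 CPM against 273 and 179 CPM (log2 1.15, adjusted p = 0.122), and Pgd at 248 and 206 CPM against 116 and 86.9 CPM (1.17, adjusted p = 0.107). The glycolysis list, named by the title of the series, gave a smaller shift: 0 of 25 genes were called, 9 (36%) were higher and 3 (12%) lower without overlap, and the median was 0.22. In replicate 1 13 of its genes were higher and 12 lower (median difference of log2(CPM + 1) 0.06). In replicate 2 18 were higher and 7 lower (0.28). Ldha, lactate dehydrogenase A, was at 7150 and 4670 CPM against 3750 and 2810 CPM (log2 0.83 ± 0.24, adjusted p = 0.166). Gpi1, which converts glucose 6-phosphate to fructose 6-phosphate, was at 447 and 281 CPM against 245 and 188 CPM (0.72 ± 0.19, adjusted p = 0.127). Pkm, pyruvate kinase, was at 3330 and 3930 CPM against 2760 and 2450 CPM (0.48 ± 0.21, adjusted p = 0.425). Respiratory chain (24 tested) and tricarboxylic acid cycle genes (21 tested) had medians of -0.03 and -0.04, with 0 called in either.

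In lipid synthesis Fads2, the delta-6 desaturase of polyunsaturated fatty acids, rose from 0.872 and 3.15 CPM in CD34-negative to 20.2 and 25.9 CPM in CD34-positive libraries (log2 3.79 ± 0.59, adjusted p = 0.0352). It was the 1 member of 30 cholesterol and fatty acid genes that passed, while 14 (46.7%) were higher and 2 (6.67%) lower without overlap, against 18.2% and 21.1% of all tested genes (median 0.40). Its partner Fads1 was at 31.1 and 33.5 CPM against 4.66 and 20.2 CPM (1.82, adjusted p = 0.236). The list differed between replicates: 18 genes were higher and 12 lower in replicate 1 (median difference of log2(CPM + 1) 0.14). In replicate 2 27 were higher and 3 lower (0.66).

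Several genes known from the epidermal barrier rose, a grouping made after their values were seen. Dsc2, a desmosomal cadherin, had the smallest p of all genes: 342 and 183 CPM in CD34-positive replicates 1 and 2 against 71.7 and 39.1 CPM in CD34-negative ones (log2 2.24 ± 0.22, adjusted p = 0.0177). The difference was the same size in both pairs although replicate 1 was higher than replicate 2 in both populations. Spink5, an inhibitor of epidermal kallikreins, stood at 1220 and 792 CPM against 193 and 185 CPM (2.40 ± 0.39, adjusted p = 0.0357). Sult2b1, which makes cholesterol sulfate, was at 870 and 234 CPM against 146 and 44.3 CPM (2.48 ± 0.41, adjusted p = 0.0357). Alox12b, the lipoxygenase needed for the lipid envelope of the cornified layer, was at 129 and 16.9 CPM against 16.7 and 2.76 CPM (2.79 ± 0.37, adjusted p = 0.0257). For Alox12b CD34-positive replicate 2 was level with CD34-negative replicate 1, and the large difference appears within each replicate. Sphingolipid genes moved as well: Sptssb, a subunit of serine palmitoyltransferase, was at 294 and 108 CPM against 23 and 14.5 CPM, and Sgpp2, a sphingosine 1-phosphate phosphatase, at 74 and 13.2 CPM against 9.89 and 1.27 CPM (adjusted p = 0.0357 and 0.0208). Endou, Klk12, Tmprss11b and Nkpd1 also rose. Without CD34-positive replicate 1 the unpaired log2 fold change moved by over 1.5 times for 6 of these genes: from 2.91 to 0.79 for Alox12b, 2.96 to 1.23 for Sgpp2, 2.54 to 1.29 for Sult2b1, 3.12 to 1.68 for Klk12, 3.11 to 1.59 for Tmprss11b and 2.51 to 0.21 for Nkpd1. Without CD34-negative replicate 1 it was 4.73 for Alox12b, 5.10 for Sgpp2, 4.88 for Tmprss11b and 4.06 for Nkpd1. Lipn, a lipase of late epidermal differentiation, fell: it was at 10.6 and 7.45 CPM against 24.1 and 18.6 CPM (-1.25 ± 0.23, adjusted p = 0.0459).

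Differentiation genes as a list were mixed. Of 28 tested differentiation genes 1 rose (Dsc2), where 0.43% of all tested genes did. Without overlap 11 (39.3%) were higher and 4 (14.3%) lower, against 18.2% and 21.1% of all tested genes, and the median was 1.09. Lypd3 was at 3190 and 1790 CPM against 1410 and 853 CPM (log2 1.12, adjusted p = 0.157) and Sprr1a, a cornified envelope precursor, at 1220 and 747 CPM against 354 and 211 CPM (1.81, adjusted p = 0.197). The keratins of the first suprabasal layer lay the other way: Krt10 was at 1170 and 920 CPM in CD34-positive and 4440 and 2640 CPM in CD34-negative libraries (-1.68, adjusted p = 0.118), and Krt1 at 1400 and 824 CPM against 5950 and 2450 CPM (-1.78, adjusted p = 0.0569). Of 12 stress and tumour keratins 1 rose (Krt23, 5.75 and 0.503 CPM against 0.227 and 0 CPM), 5 (41.7%) were higher and 2 (16.7%) lower without overlap, and the median was 1.05. The unpaired log2 fold change of Krt23 was 4.66, 2.03 without CD34-positive replicate 1 and 8.87 without CD34-negative replicate 1. Krt17, a keratin of wounded and tumour epidermis, was at 9150 and 9880 CPM against 3670 and 4490 CPM (1.22, adjusted p = 0.16). Reads of Krt16, Krt17 and Krt6 family members and their pseudogenes can be shared.

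Transcription factors split. Foxe1, a forkhead factor of the hair follicle and thyroid, rose from 2.69 and 4.51 CPM in CD34-negative to 47.1 and 45 CPM in CD34-positive cells (log2 3.63 ± 0.60, adjusted p = 0.0357). An annotated antisense transcript, Gm12446, overlaps it and also rose, and the kit does not tell their reads apart. Pitx1, a homeobox factor of hind limb and oral epithelium, was at 234 and 108 CPM against 30.8 and 7.14 CPM (3.43 ± 0.51, adjusted p = 0.0326). Sox2, a stem cell factor that is also active in squamous tumours, was at 24.4 and 10.1 CPM against 2.31 and 0.482 CPM (3.83 ± 0.65, adjusted p = 0.0365). Nfatc1, a factor that keeps bulge stem cells quiescent, fell from 29.9 and 50.7 CPM in CD34-negative to 3.99 and 13.7 CPM in CD34-positive cells (-2.40 ± 0.35, adjusted p = 0.0326). Its unpaired value went from -2.19 to -3.33 without CD34-positive replicate 2. Nfatc1 and Cd34 thus went in opposite directions although both mark the normal bulge. Over the 24 tested genes of hair follicle and stem cells, 2 rose, 1 fell and the median was -0.21, with 6 (25%) higher and 6 (25%) lower without overlap.

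**Figure D3:**
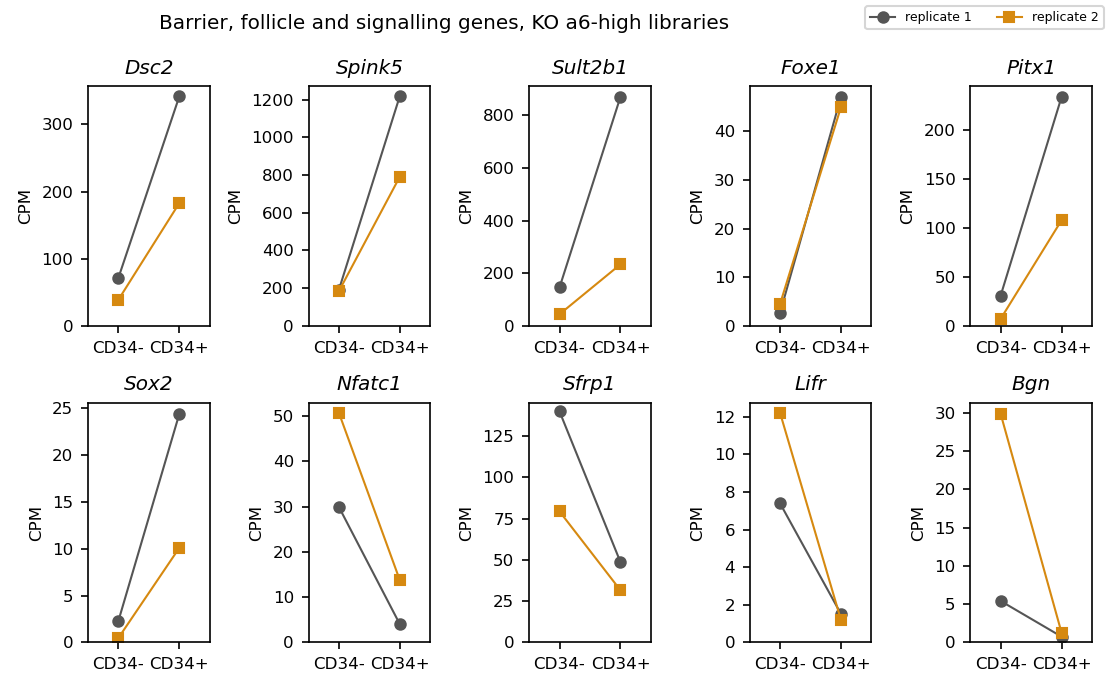
CPM of 10 barrier, follicle and signalling genes in the 4 KO a6-high libraries, drawn as for the glutathione genes, each panel with a linear axis from 0. In all, 6 panels slope upwards (Dsc2 to Sox2) and 4 downwards (Nfatc1 to Bgn), and in each both replicates slope the same way.

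Signalling genes among the 26 that fell included Sfrp1, Lifr and Prlr, picked with their values in view. Sfrp1, a secreted WNT antagonist, was at 48.7 and 31.6 CPM in CD34-positive and 140 and 79.4 CPM in CD34-negative libraries (log2 -1.43 ± 0.23, adjusted p = 0.0357). It was the 1 call among 32 tested WNT genes, of which 8 (25%) were higher and 11 (34.4%) lower without overlap, against 18.2% and 21.1% of all tested genes. The ligand Wnt3 was at 0.252 and 1.69 CPM against 23.5 and 18.2 CPM (-5.21, adjusted p = 0.0946), and Tnfrsf19, a receptor and WNT target, at 1.13 and 1.51 CPM against 44.4 and 12.5 CPM (-4.13, adjusted p = 0.0867). Lifr, the receptor of leukaemia inhibitory factor, was at 1.51 and 1.19 CPM against 7.39 and 12.2 CPM (-2.86 ± 0.48, adjusted p = 0.0357). Its ligand Lif lay the other way, at 18.3 and 17.9 CPM against 7.84 and 5.96 CPM (1.38, adjusted p = 0.108). Prlr, the prolactin receptor, was at 0.21 and 0.229 CPM against 6.93 and 2.89 CPM (-4.35 ± 0.64, adjusted p = 0.0326).

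The EGF receptor and its relatives receive growth signals for keratinocytes. Of the 15 tested genes of the receptors and their ligands 0 were called, 9 had a positive and 6 a negative log2 fold change, and the median was 0.64. Without overlap 6 (40%) were higher and 2 (13.3%) lower, against 18.2% and 21.1% of all tested genes. The 6 were the ligands Tgfa, Areg, Ereg, Btc, Hbegf and Epgn, and the 2 were the ligand Egf and Lrig3. Ereg was at 157 and 254 CPM against 49 and 35.6 CPM (log2 2.34, adjusted p = 0.0568) and Areg at 520 and 797 CPM against 206 and 170 CPM (1.85, adjusted p = 0.111). Epgn was at 248 and 237 CPM against 112 and 49.2 CPM (1.82, adjusted p = 0.109). Among 30 genes of DNA replication and mitosis 0 were called and 25 had a positive log2 fold change, with a median of 0.36. Without overlap 4 (13.3%) were higher and 1 (3.33%) lower.

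Of 26 tested matrix genes 1 rose and 1 fell, and 5 (19.2%) were higher and 9 (34.6%) lower without overlap, against 18.2% and 21.1% of all tested genes. Spp1, osteopontin, was at 20.8 and 8.64 CPM in CD34-positive and 0.834 and 0.35 CPM in CD34-negative libraries (log2 4.61 ± 0.79, adjusted p = 0.0365). Bgn, the matrix proteoglycan biglycan, was at 0.756 and 1.28 CPM against 5.42 and 29.9 CPM (-3.75 ± 0.65, adjusted p = 0.0366). Without CD34-negative replicate 2 the unpaired value for Bgn went from -4.11 to -2.41. Matrix genes are also made by fibroblasts, of whose 12 markers Thy1 was higher in CD34-negative libraries, while Dcn, Lum, Dpt and Fap were at 0 and Col1a1 and Col1a2 did not exceed 0.263 CPM. The part of such cells was not tested. Postn, periostin, was at 1.01 and 8.68 CPM against 262 and 230 CPM (-5.98, adjusted p = 0.0606), and P4ha3, a collagen prolyl hydroxylase, at 0.924 and 1.01 CPM against 22.2 and 11.6 CPM (-4.04, adjusted p = 0.055). Fewer cells of a type and less RNA per cell cannot be told apart in such libraries.

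Several chemokine and immune genes fell in CD34-positive cells, with levels that differed widely between the replicates. Cxcl9, a chemokine induced by interferon gamma, was at 3.27 and 0.411 CPM in CD34-positive and 191 and 5.08 CPM in CD34-negative replicates 1 and 2 (log2 -5.11 ± 0.63, adjusted p = 0.022). Ccl11, eotaxin, was at 25.5 and 1.55 CPM against 305 and 29.6 CPM (-3.94 ± 0.65, adjusted p = 0.0357). Chil4, a chitinase-like protein with a near-identical paralogue, was at 9.53 and 3.61 CPM against 517 and 77.2 CPM (-5.16 ± 0.75, adjusted p = 0.0326). For Chil4 both groups stood apart. CD34-positive replicate 1 and CD34-negative replicate 2 were close for Cxcl9 (3.27 and 5.08 CPM) and for Ccl11 (25.5 and 29.6 CPM). Iigp1, an interferon-induced GTPase, was called as well, but was read in replicate 1 only (0.168 against 68.6 CPM, and 0 in both libraries of replicate 2). Without CD34-negative replicate 1 the unpaired log2 fold change went from -5.72 to -1.45 for Cxcl9, from -3.63 to -1.13 for Ccl11, from -5.49 to -3.55 for Chil4 and from -8.53 to 3.80 for Iigp1. That of Ccl11 was -6.75 without CD34-positive replicate 1.

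The interferon response list showed the same split. Of its 24 tested genes 0 were called, 1 (4.17%) was higher and 9 (37.5%) lower without overlap, against 18.2% and 21.1% of all tested genes, and the median was -3.31. By replicate, 23 of 24 were lower in CD34-positive cells in replicate 1 (median difference of log2(CPM + 1) -2.39) and 12 of 24 in replicate 2 (-0.03). CD34-negative replicate 1 was the highest of the 4 libraries for 23 of the 24 genes (95.8%), against 22.8% of all tested genes. Antigen presentation genes, by contrast, were lower in both replicates: 12 of 12 in each, with medians of -2.29 and -0.72, 10 of them (83.3%) without overlap and 0 called. Of all 14652 tested genes, 7628 were lower in replicate 1 and 7272 in replicate 2. As in the interferon list, CD34-negative replicate 1 was the highest library for most antigen presentation genes, here 12 of 12 (100%). H2-K1, a class I heavy chain, was at 276 and 299 CPM against 1450 and 684 CPM (-1.78, adjusted p = 0.0937), and B2m, the light chain of class I, at 417 and 497 CPM against 2300 and 1020 CPM (-1.67, adjusted p = 0.188). H2 genes are polymorphic and similar to each other, so their levels are uncertain. In CD34-negative replicate 1 the sum of the macrophage and dendritic markers was also at its highest. It was so through Cd74 (115 CPM, against 11.7 to 23.1 in the others) and H2-Aa (39.1 against 7.31 to 11.3). The pan-leukocyte gene Ptprc was at 2.61 CPM there, against 0.462 to 1.23 CPM. Csf1r, at 0.341 against 0.0438 to 0.462 CPM, was not highest there. Other markers of that list lay the other way: Cd68 was at 15.7 and 14.9 CPM in CD34-positive and 7.12 and 5.96 CPM in CD34-negative libraries, C1qb at 1.01 and 1.83 against 0.682 and 0.613 CPM, and C1qc at 1.22 and 1.28 against 0.568 and 0.394 CPM. The part of such cells in the immune genes was not tested.

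Further genes rose. Rbpms, an RNA-binding protein, was at 65.4 and 48.3 CPM against 18.5 and 8.76 CPM (log2 2.12 ± 0.25, adjusted p = 0.022), and Vamp5, a vesicle membrane protein, at 9.2 and 7.54 CPM against 0.947 and 0.613 CPM (3.44 ± 0.38, adjusted p = 0.0208). Tspan12, a tetraspanin that acts in Norrin and Frizzled signalling, was at 20.4 and 28.3 CPM against 3.41 and 7.01 CPM (2.27 ± 0.30, adjusted p = 0.0229). Lgals1, galectin 1, and Tm4sf1 had higher levels in replicate 2: Lgals1 was at 12.6 and 111 CPM against 1.97 and 14.8 CPM, and Tm4sf1 at 14.4 and 88.5 CPM against 3.56 and 15.9 CPM (adjusted p = 0.022 and 0.0229). Their unpaired log2 fold changes of 2.89 and 2.40 became 0.59 and 0.57 without CD34-positive replicate 2, and 4.96 and 3.84 without CD34-negative replicate 2. Ptgr1, prostaglandin reductase 1, was at 775 and 398 CPM against 157 and 86.4 CPM (2.25 ± 0.41, adjusted p = 0.0459), and Aspa, which cleaves N-acetylaspartate, at 34.1 and 24.5 CPM against 2.12 and 1.84 CPM (3.89 ± 0.72, adjusted p = 0.0466).

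**Figure D4:**
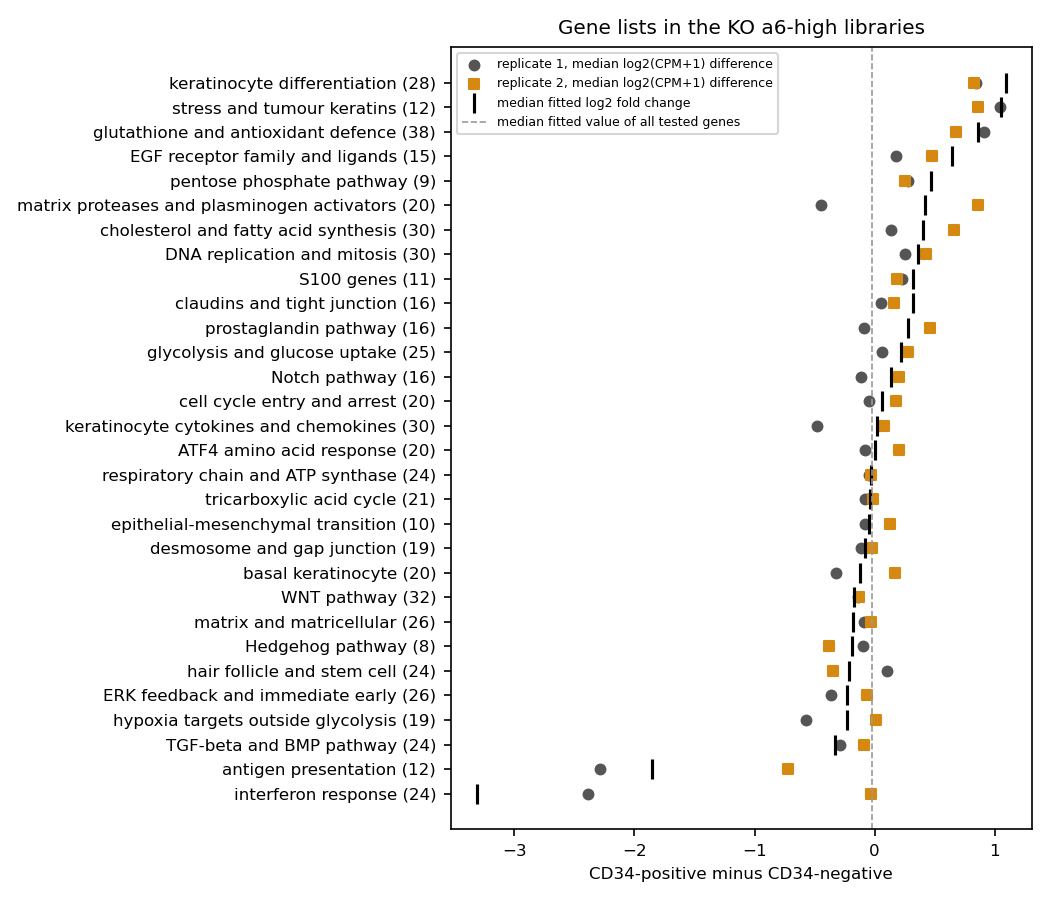
Medians over the tested members of each gene list (number in brackets): squares and circles give the CD34-positive minus CD34-negative difference of log2(CPM + 1) in replicates 2 and 1, and bars the fitted log2 fold change of the unpaired fit. The dashed line is the median of all tested genes (-0.02), and the interferon list has replicate 1 at -2.39 and replicate 2 at -0.03.

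The third sorted population, CD34-negative a6-low, lay on the same side of the CD34-positive libraries as CD34-negative a6-high cells for most called genes. Its 2 libraries differed in the RNA of the sort marker. Itga6 was at 67.9 CPM in a6-low replicate 1 and at 445 CPM in a6-low replicate 2. The CD34-negative a6-high libraries had 379 and 360 CPM, so by this RNA a6-low replicate 2 was not low. Of the 63 risers, 48 had both a6-low libraries below both CD34-positive libraries (76.2%, against 19% of all tested genes), and of the 26 that fell, 25 had both above (96.2%, against 19.4%). The genes were chosen for their high or low level in the same CD34-positive libraries, so these shares are a description. Gsto1 was at 4100 and 3210 CPM and Dsc2 at 102 and 60.4 CPM in the a6-low libraries, and Nfatc1 at 25.7 and 69.3 CPM. Cxcl9 was at 234 and 8.09 CPM there, with the same replicate 1 high as in CD34-negative a6-high cells.

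The WT libraries, which played no part in the contrast that chose the genes but shared its estimate of spread, gave the same direction for nearly all of them. All 63 risers had a positive log2 fold change in WT, and 61 were higher in the CD34-positive library of each of the 3 WT pairs, against 16.1% of all tested genes. In 49 the WT groups did not overlap, against 8.9%. The median of the risers in the unpaired fit was 2.43 in KO and 2.17 in WT libraries (2.42 in KO in the paired fit), and the KO value is raised by choosing the genes on it. Of the 26 that fell, 25 were negative in WT, 22 were lower in each WT pair (15.5% of all genes were), and 10 did not overlap (6.37%). Their medians in the unpaired fit were -2.74 in KO and -1.36 in WT (-2.79 in KO in the paired fit). Gsto1 ranged from 8780 to 14900 CPM (median 11500) in WT CD34-positive and from 3350 to 4800 CPM (median 3880) in WT CD34-negative libraries. Its KO minus WT difference in log2 fold change was 0.00 ± 0.33. For Slc7a11 that difference was 1.06 ± 1.04 and for Dsc2 0.50 ± 0.64, standard errors that leave room for sizeable differences in either direction. Across all tested genes the KO and WT log2 fold changes correlated with r = 0.57, genes not being independent replicates.

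Whether the CD34 comparison differed between genotypes was tested for each gene. No gene passed (edgeR called 0 of 14652, smallest adjusted p = 1, with 159 genes or 1.09% at an unadjusted p under 0.05, 32 of them with the higher KO value), and with pairing edgeR also called 0. DESeq2 called 1 without pairing and 7 with it, all with the lower KO value. The 7 were Bgn, Ccl11, Tgfb3, Parm1, Mill1, Tac1 and Rps4l. Tac1 did not exceed 2.38 CPM in the a6-high libraries. Rps4l, annotated as a pseudogene, was at 287 to 513 CPM in KO and 0.191 to 12.2 CPM in WT a6-high libraries. Its log2 fold change in KO was 0.08. Bgn was the 1 gene that fell in KO and lay the other way in WT: it was at 1.09 to 1.29 CPM in WT CD34-positive and 0.0767 to 0.764 CPM in WT CD34-negative libraries, where the KO CD34-negative libraries had 5.42 and 29.9 CPM. The KO minus WT difference was -5.60 ± 1.16 in log2 (adjusted p = 1). Ccl11 was at 4.36 to 14.5 CPM in WT CD34-positive and 2.53 to 24.5 CPM in WT CD34-negative libraries, which overlapped.

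**Figure D5:**
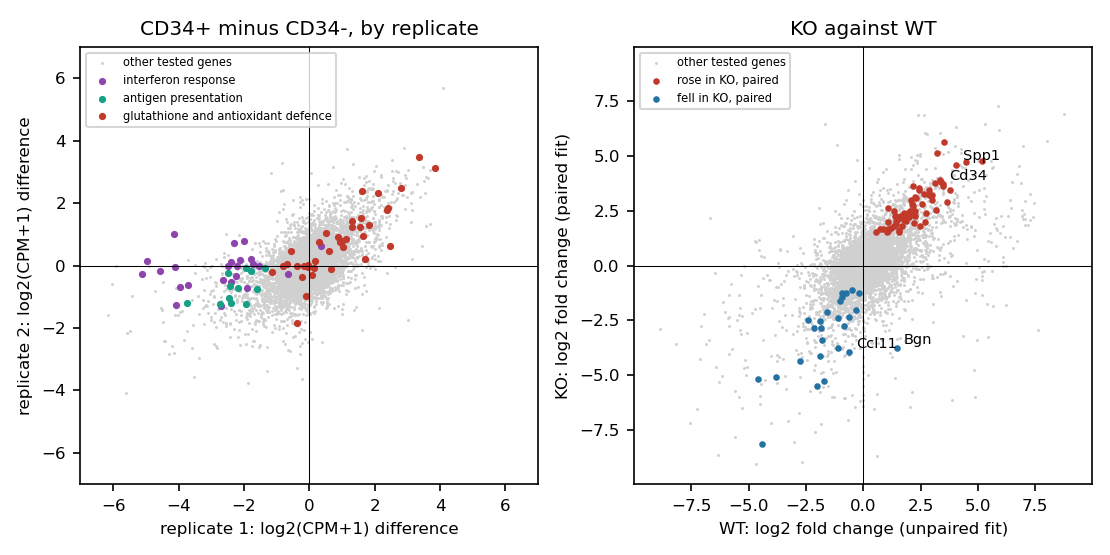
Left, the difference of log2(CPM + 1) between CD34-positive and CD34-negative cells in replicate 2 (y axis) against replicate 1 (x axis) for all tested genes, with 3 lists coloured: glutathione genes run along the diagonal, interferon genes lie far left near 0 on the y axis. Right, the log2 fold change in KO (paired fit, y axis) against WT (unpaired fit, x axis), with the genes that rose or fell in KO coloured and Bgn at 1.49 in WT and -3.75 in KO.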

How the data were processed

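Per the labels' protocols, cDNA was made from sorted tumour cells by SMART-Seq v4, which keeps no strand. Read counts per Ensembl gene were deposited (37583 genes, not normalized). The submitters' processing notes name, without roles, HTSeq 0.6.0, STAR 2.3.0, Picard 1.100 and mm9 as the build. No annotation release is named. The 5 closing entries without a gene name were dropped. In the 4 libraries 29.86% to 31.31% of records were reads with several alignments, 4.11% to 4.64% fell outside genes and 1.97% to 2.09% were ambiguous. Reads with several alignments were not counted for genes, so near-identical genes are uncertain. Without strand, reads of Cd34, Chn2, Egf, Egfl7, Ereg, G6pdx, Gclm, Gpi1, Krt10, Lypd3, Oplah, Pitx1, Pmel, Sgpp2, Slc1a1, Sult2b1, Tgfa, Tgfb3 and Tspan12 cannot be told apart from those of genes whose exons overlap theirs on the other strand in GENCODE M21. Symbols were matched by identifier through GENCODE M21 for 32860 genes (87.4%). Promoter windows and their coordinates are RefSeq's (GRCm38.p6), another build than that of the counts.

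Counts of all 15 libraries were fitted with edgeR 4.0.16 in R 4.3.3 (quasi-likelihood F test, two-sided, TMM, filterByExpr, a coefficient per genotype and population), which tested 14652 genes, with Benjamini-Hochberg adjustment over all of them at 0.05. The paired fit adds genotype with replicate number as a block. Pairing was accepted because same-numbered a6-high libraries correlated above 0.1 in their deviations in every pair (0.53 in KO, 0.104, 0.126 and 0.374 in WT), though WT CD34-positive replicate 1 correlated as well with CD34-negative replicate 2 (0.107). This is a hint from the data. Nothing in the labels ties the libraries of a group to separate animals. In KO, the Y-linked Ddx3y was read in both groups of replicate 2 and in neither of replicate 1, and Xist the other way (35.1 and 53.4 CPM in replicate 1, at most 0.32 CPM in replicate 2), so these replicates came from different animals. In WT, Ddx3y did not exceed 0.222 CPM, which tells no replicates apart. The p-values describe only how far these samples spread, which for WT may be technical. Within each KO group the 2 libraries differed beyond counting noise (chi-square over its degrees of freedom 84.9 and 94.9). Standard errors were derived from the F statistic. CPM use TMM-scaled library sizes, and differences within a replicate are of log2(CPM + 1). Fits were run on simulated data that held no effect shared by same-numbered libraries, so those runs do not check the pairing.

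The members and lists were chosen with earlier results of these data known. The rule for named genes took Cd34, Itga6 and Sirt6, then calls of the unpaired fit (there were 0), then the 12 paired calls in each direction with the smallest p, a mean of at least 5 CPM in the higher group and no overlap, then up to 4 members of each of 39 lists with the smallest unpaired p, and 10 interaction genes. Not all are printed. Cell type markers are those of the design. The remaining genes were picked with their values in view. Alternatives were DESeq2 1.42.0, its size factors, 2 other filters, fewer libraries, the block and leaving out each library.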

Additional observations from a re-analysis of the deposited data

Results flagged for a closer look

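For 8 named genes both KO pairs moved one way and all 3 WT pairs the other. The difference between the genotypes was tested with edgeR's interaction contrast, without pairing, and none passed (adjusted p = 1 for each). The KO minus WT differences in log2 fold change were -5.60 for Bgn, -3.10 for Mill1, -2.58 for Tgfb3, -2.49 for Chn2, -2.45 for Itgb8, -2.12 for Parm1, -1.86 for Pmel and -0.77 for Jag1. In all 8 the KO value was the lower. Pmel was below 3 CPM in all 10 a6-high libraries.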

How the results depend on the processing

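The count of called genes depended on the pairing and on the tool. Without pairing, edgeR called 0 genes, also with DESeq2 size factors, with at least 10 CPM in 2 libraries, in the 4 KO a6-high or the 6 KO libraries alone, and without any 1 of the 4 libraries (range 0 to 0). It called 1 in the 10 a6-high libraries, 528 with no filter on low counts (83 of them among the 89) and 89 with the replicate block, and DESeq2 called 187. The paired count of 89 became 94 with DESeq2 size factors, 67 with at least 10 CPM in 2 libraries, 156 in the 10 a6-high libraries, 300 with no filter and 640 in DESeq2, which shared 86, 63, 72, 89 and 88 genes with the 89. It became 0 with no replicate block, in the 6 KO libraries alone, and without each library in turn (0 to 0), where the lone sample of a group is assumed to vary like the other groups. The paired alternatives were chosen after seeing the data. The KO minus WT difference gave 0 calls with and without the replicate block, 20 with no filter, 1 in DESeq2 and 7 in DESeq2 with the replicate block, and 0 to 0 when a library was left out. The cause of these shifts was not tested.

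The direction of 39 called genes named in the text was compared across the alternative runs. Paired runs without a library and runs without a WT library were not part of this, and Oplah, Slc1a1 and Lipn are not among the 39. All kept their direction except Iigp1, whose unpaired log2 fold change ran from -12.34 to 3.80 when a KO a6-high library was left out. It was positive without CD34-negative replicate 1. All 39 lost the call without pairing in edgeR when all 15 libraries and the main filter were used. With no filter on low counts, unpaired edgeR took the call from 0 of them. Of uncalled genes, Itga6 ran from -0.20 to 0.64 and Gpx1 from -0.66 to 0.05. Of the 39, 15 moved by over 1.5 times in the unpaired log2 fold change without at least 1 of the 4 libraries: 8 without CD34-positive replicate 1, 9 without CD34-negative replicate 1, 3 without CD34-positive replicate 2 and 3 without CD34-negative replicate 2. Genes below about 1 CPM rest on few reads.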
